A study of Mus musculus with 6 samples.

Results

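The genes described are 44 that act in protein folding and quality control in the endoplasmic reticulum (ER): chaperones, disulfide isomerases, components of ER-associated degradation (ERAD), and the sensors and effectors of the unfolded protein response. They were matched by symbol, and all 44 were found among the 18732 genes of the authors' comparison and had an adjusted p. The study purified RNA bound to tagged ribosomes from the mouse striatum after morphine or saline, with 3 libraries in each group. In all mice of both groups Cre recombinase was driven by Oprm1, which encodes the mu opioid receptor, and RosaLSL-GFP-L10a gave a GFP-tagged ribosomal protein in cells with Cre. Labels of single libraries read Oprm1Cre/+;RosaLSL-GFP-L10a, whereas the series description reads Oprm1Cre/Cre. Each library pooled the striata of 2 brains, collected 24 h after the last dose. Morphine was given subcutaneously in doses that rose from 20 through 40 and 60 to 100 mg/kg, 2 injections a day for 5 days, and the controls received saline. The sources used here do not give age or sex.

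The ER is where secreted and membrane proteins enter the secretory route and fold. The Hsp70 chaperone BiP, encoded by Hspa5, binds unfolded chains with the help of J-domain cofactors, calnexin and calreticulin hold glycoproteins by their sugars, and protein disulfide isomerases form and reshuffle disulfide bonds. Chains that fail to fold are passed back to the cytosol through membrane complexes and degraded by the proteasome. When unfolded chains accumulate, the sensors IRE1 (Ern1), ATF6 (Atf6) and PERK (Eif2ak3) in the ER membrane activate the transcription factors XBP1, ATF6 and ATF4, which raise chaperone and stress genes. Striatal projection neurons make neuropeptide precursors, receptors and channels that all pass through this compartment.

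Many chaperone promoters carry the ER stress element, to which NF-Y and the activated ATF6 or XBP1 bind. Its letters are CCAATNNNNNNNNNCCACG, and it was searched on both strands of RefSeq promoters on GRCm38.p6 that run from 250 bases before to 50 bases after a gene's start. A promoter was found for 38 of the 44 genes, and 8 of these (21.1%) held the element, against 37 of 27025 genes with a promoter (0.137%). All 8 of these genes rose, as did 31 of the 33 lumenal and membrane genes with a predicted hydrophobic segment, to which all 8 belong. The sites are written in the direction of the element, with its fixed letters in capitals:
Hspa5: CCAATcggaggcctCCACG
Pdia6: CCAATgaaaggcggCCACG
Creld2: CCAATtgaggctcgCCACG
Dnajc3: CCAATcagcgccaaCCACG
Calr: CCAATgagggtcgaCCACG
Hsp90b1, nearer site: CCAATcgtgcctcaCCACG
Hsp90b1, farther site: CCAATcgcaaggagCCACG
Canx: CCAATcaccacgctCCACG
Syvn1: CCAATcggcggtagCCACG

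On GRCm38.p6 these lie at chr2:34772025-34772043 (Hspa5), chr12:17266491-17266509 (Pdia6), chr15:88819520-88819538 (Creld2), chr14:118937827-118937845 (Dnajc3), chr8:84847075-84847093 (Calr), chr10:86705533-86705551 and chr10:86705638-86705656 (Hsp90b1), chr11:50325800-50325818 (Canx) and chr19:6046532-6046550 (Syvn1). The nearer end of a site was between 26 bases (Syvn1) and 194 bases (the farther Hsp90b1 site) upstream of the start. The related element ERSE-II, ATTGGNCCACG on either strand, was present in 2 of the 38 (5.26%), Herpud1 and Dnajb11, against 12 of the 27025 genes (0.0444%). Its sites are the following, with the fixed letters in capitals:
Dnajb11: ATTGGcCCACG
Herpud1: ATTGGgCCACG

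They lie at chr16:22857852-22857862 (Dnajb11) and chr8:94386377-94386387 (Herpud1). The core CCACG alone says less, since it was found in 28 of the 38 genes (73.7%) and in 35.5% of all genes. A matching run of letters is not evidence that a factor was bound in these cells.

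Whole promoters are printed for comparison, each on the plus strand, which is the strand of its gene. They are those of Hspa5 (chr2:34771840-34772139), the textbook target of the response, of Creld2 (chr15:88819396-88819695), the gene with the highest fold change of the 44, and of Herpud1 (chr8:94386179-94386478), a known target that did not pass the test. Capitals mark the fixed letters of the elements, and in Creld2 the element reads on the opposite strand:
Hspa5 promoter: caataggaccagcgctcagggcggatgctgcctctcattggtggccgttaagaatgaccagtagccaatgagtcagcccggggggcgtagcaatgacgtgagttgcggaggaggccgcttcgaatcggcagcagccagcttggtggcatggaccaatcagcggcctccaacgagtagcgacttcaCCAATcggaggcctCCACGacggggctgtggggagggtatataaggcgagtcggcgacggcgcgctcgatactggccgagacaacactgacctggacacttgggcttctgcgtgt
Creld2 promoter: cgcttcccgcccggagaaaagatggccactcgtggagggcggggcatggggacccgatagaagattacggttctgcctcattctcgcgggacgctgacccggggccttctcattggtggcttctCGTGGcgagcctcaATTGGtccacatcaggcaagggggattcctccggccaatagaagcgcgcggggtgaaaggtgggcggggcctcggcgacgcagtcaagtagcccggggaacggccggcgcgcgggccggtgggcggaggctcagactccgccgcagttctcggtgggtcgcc
Herpud1 promoter: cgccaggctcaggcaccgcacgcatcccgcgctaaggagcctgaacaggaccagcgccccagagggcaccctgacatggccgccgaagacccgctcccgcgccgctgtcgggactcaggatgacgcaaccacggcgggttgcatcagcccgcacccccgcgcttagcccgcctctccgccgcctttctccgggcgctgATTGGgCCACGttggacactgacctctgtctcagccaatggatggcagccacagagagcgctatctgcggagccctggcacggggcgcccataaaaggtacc

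Of the 44 genes, 35 rose after morphine and none fell (DESeq2 Wald test of the authors, adjusted p under 0.05 over all genes). At an unadjusted p under 0.05, 37 were higher and 0 lower. Over all 17279 tested genes, 11.8% were called higher and 2.01% lower. The median log2 fold change of the 44 in the authors' deposited table was 0.77, with a range from -0.03 to 1.33, against a median of -0.01 over all tested genes. A positive value is read as higher after morphine because the authors kept such genes in a sheet marked Up, and the table does not name its reference group. The table gives no value per library, so SEs and intervals are those of the authors' fit, and the number of libraries behind them is not known. In such a purification more tagged cells and more RNA per tagged cell cannot be told apart.

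Counts differed by where the protein resides, a difference that was not tested. Of 27 genes whose products are soluble in the ER lumen, 23 rose, with a median of 0.86 in the authors' deposited table. Of 12 genes whose products sit in the ER membrane, 11 rose, with a median of 0.78. Of 5 effectors that act in the cytosol or nucleus, 1 rose, with a median of 0.11. Over all tested coding genes, 44.2% with a predicted hydrophobic segment and 2.75% without were called higher, as set out below. All 39 lumenal and membrane genes had a log2 fold change above 0.

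**Figure D1:**
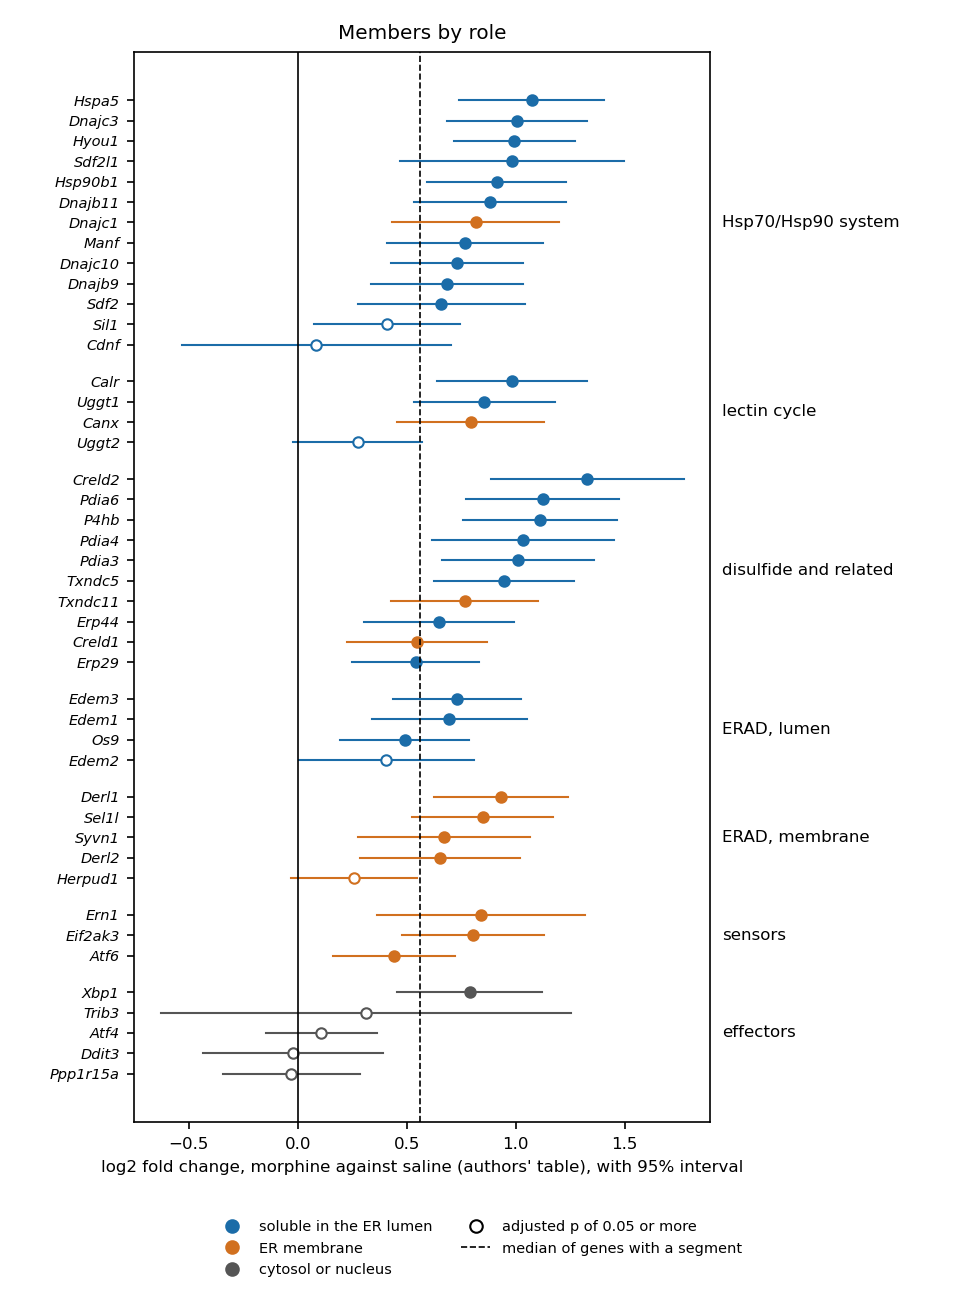
Log2 fold change of each of the 44 genes by role, with intervals of 1.96 SEs to either side (95%), from the authors' deposited table. Filled points passed adjusted p under 0.05, colours give the place of the protein, and the dashed line is the median of all tested genes with a predicted segment (0.56). Of the lumenal and membrane genes 34 are filled, and of the effectors only Xbp1.

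The Hsp70 and Hsp90 system of the ER, which here includes the membrane-bound Dnajc1, rose in 11 of 13 genes. Among all tested coding genes with a predicted segment, 44.2% were called higher. Hspa5 itself, the central ER chaperone, was 2.10-fold higher (log2 fold change 1.07, SE 0.17, adjusted p = 3.21e-08, DESeq2) in the authors' deposited table. It is annotated as ENSMUSG00000026864, and its level per kb of exon was 997 mean normalized counts. Its partners in the lumen rose by similar amounts in the authors' deposited table: Hyou1, a large Hsp70 that exchanges the nucleotide of BiP, by 0.99 (SE 0.14), and Hsp90b1, the ER form of Hsp90 known as GRP94, by 0.91 (SE 0.16). Hsp90b1 shares 10.3% of its exon bases with 1810014B01Rik on the opposite strand, a pseudogene at -0.42 (adjusted p = 0.421, SE 0.28) in the authors' deposited table.

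The J-domain cofactors of BiP rose together. In the authors' deposited table Dnajc3 (p58IPK) was at 1.01 (SE 0.16), Dnajb11 (ERdj3) at 0.88 (SE 0.18) and the membrane-bound Dnajc1 at 0.82 (SE 0.20). Dnajc10, a J protein that also reduces disulfides, stood at 0.73 (SE 0.16) and Dnajb9 (ERdj4), a direct target of XBP1, at 0.69 (SE 0.18) in the authors' deposited table. Their intervals overlapped one another, so no order among them is given. Sil1, the other nucleotide exchange factor of BiP, did not pass, at 0.41 (adjusted p = 0.10, SE 0.17) in the authors' deposited table.

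Small lumenal cofactors came in pairs of related genes. The SDF2 proteins join the ERdj3 complex, and in the authors' deposited table Sdf2l1 was at 0.98 (SE 0.26) and Sdf2 at 0.66 (SE 0.20), both past the threshold. Of the related trophic factors MANF and CDNF, Manf rose by 0.77 (adjusted p = 0.000399, SE 0.18) in the authors' deposited table. Cdnf was at 0.09 (adjusted p = 0.939, SE 0.31) in the authors' deposited table, with a wide interval of -0.53 to 0.70. Sdf2 shares 16.0% of its exon bases with Supt6 on the opposite strand, and the sources used here do not say whether counting used strand.

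The lectin cycle, which holds glycoproteins until they fold, rose in 3 of 4 genes, against 44.2% of all tested coding genes with a predicted segment. Calr, encoding the soluble lectin calreticulin, was at 0.98 (SE 0.17, adjusted p = 8.55e-07, DESeq2) and Canx, encoding its membrane-bound relative calnexin, at 0.79 (adjusted p = 8.04e-05, SE 0.17) in the authors' deposited table. Both were among the most abundant of the 44 per kb of exon, with 2327 and 2085 mean normalized counts per kb. Uggt1, the glucosyltransferase that marks unfolded glycoproteins for another round, rose by 0.86 (SE 0.17) in the authors' deposited table. Its paralog Uggt2 was at 0.27 (SE 0.15, adjusted p = 0.280), with an interval of -0.02 to 0.57 in the authors' deposited table that only just reached the lower bound of Uggt1, 0.53.

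Disulfide isomerases and related proteins rose in 10 of 10 genes, against 44.2% of all tested coding genes with a predicted segment. They held the highest values of the 44. Creld2, a small secreted disulfide isomerase and known stress target, showed a 2.51-fold rise in the authors' deposited table (log2 fold change 1.33, SE 0.23, adjusted p = 2.71e-07, DESeq2). Of the tested genes 97.4% had a lower value. The isomerase genes Pdia6 (1.12, SE 0.18), P4hb (1.11, SE 0.18), Pdia4 (1.03, SE 0.21) and Pdia3 (1.01, SE 0.18) all exceeded a 2-fold rise in the authors' deposited table, as did Hspa5, Dnajc3 and Creld2, 7 genes in all. Txndc5, another thioredoxin-domain isomerase, was at 0.95 (SE 0.16) in the authors' deposited table.

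Other members of this group changed less. In the authors' deposited table Txndc11, a membrane-bound thioredoxin protein, was at 0.77 (SE 0.17), Erp44, which retrieves unassembled proteins from the Golgi, at 0.65 (SE 0.18), and Creld1, a membrane-bound relative of Creld2, at 0.55 (SE 0.16). Erp29, which lacks isomerase activity, was at 0.54 (SE 0.15) in the authors' deposited table and shares 24.4% of its exon bases with Naa25 on the opposite strand. The 95% interval of Creld2 lay wholly above those of 4 of the other called genes, Creld1, Erp29, Os9 and Atf6, while all other called intervals overlapped it.

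Components of ERAD rose in 7 of 9 genes, against 44.2% of all tested coding genes with a predicted segment. Edem1, Edem2, Edem3 and Os9 encode lumenal proteins that trim or read the sugars of misfolded glycoproteins. In the authors' deposited table Edem3 was at 0.73 (SE 0.15), Edem1 at 0.69 (SE 0.18) and Os9 at 0.49 (SE 0.15), all past the threshold, and Edem2 at 0.41 (SE 0.20, adjusted p = 0.216). In the membrane, Sel1l and Syvn1 encode the scaffold and the ubiquitin ligase HRD1 of the main ERAD complex. They rose by 0.85 (SE 0.16) and 0.67 (SE 0.20) in the authors' deposited table. The derlin genes, thought to form part of the exit channel, rose too, Derl1 by 0.93 (SE 0.16) and Derl2 by 0.65 (SE 0.19) in the authors' deposited table.

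Herpud1 was the membrane gene of the 12 that did not pass. It encodes HERP, a small membrane protein that organises HRD1 and is known as one of the most inducible ERAD genes. Its log2 fold change in the authors' deposited table was 0.26 (SE 0.15, adjusted p = 0.306), with an interval of -0.03 to 0.55. Of the other 4 membrane components of ERAD, Derl1 had an interval wholly above it, and those of Sel1l, Syvn1 and Derl2 overlapped it. At 771 mean normalized counts per kb it ranked 11 of the 44 by level. Among the genes with a predicted segment, 27.2% had a lower fold change, against 94.4% for Creld2 and 89.8% for Hspa5.

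The 3 sensors of the response all rose. In the authors' deposited table Ern1 was at 0.84 (SE 0.24, adjusted p = 0.00612), Eif2ak3 at 0.80 (SE 0.17, adjusted p = 3.66e-05) and Atf6 at 0.44 (SE 0.14, adjusted p = 0.0178). Their levels differed widely, with 28.7 mean normalized counts per kb for Ern1, 148 for Eif2ak3 and 781 for Atf6. Chosen after their values were seen, the cytosolic kinases that phosphorylate the same translation factor as PERK were at -0.02 (Eif2ak1, SE 0.12), -0.17 (Eif2ak2, SE 0.42) and -0.16 (Eif2ak4, SE 0.15) in the authors' deposited table, and none passed. The sensors have a predicted hydrophobic segment and these kinases do not, and 44.2% and 2.75% of such coding genes were called higher.

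Of the effectors only Xbp1 rose. Its mRNA is cut by IRE1 to give the active factor, and the product of the uncut mRNA is known from mammalian cells to bring that mRNA to the ER membrane. The authors' deposited table gave Xbp1 0.79 (SE 0.17, adjusted p = 7.14e-05, DESeq2), 1.73-fold. The cut and uncut forms are not separated in a count per gene.

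The genes downstream of PERK among the 44 did not pass. None of Atf4, Ddit3, Trib3 and Ppp1r15a has a predicted hydrophobic segment, and of all tested coding genes without one only 2.75% were called higher. Atf4, encoding the factor whose translation rises when PERK is active, was the most abundant of the 44 per kb (2333 mean normalized counts) and stood at 0.11 (adjusted p = 0.744, SE 0.13) in the authors' deposited table. Its interval of -0.15 to 0.36 lies wholly below that of Xbp1, 0.46 to 1.12. The pro-apoptotic factor gene Ddit3 (CHOP) was at -0.02 (SE 0.21) and Ppp1r15a (GADD34), which restarts translation, at -0.03 (SE 0.16) in the authors' deposited table. Trib3, a CHOP target, was at 0.31 with an SE of 0.48 in the authors' deposited table, on the lowest mean level of the 44, 45.9 normalized counts, so that a rise like that of the chaperones falls within its interval. Chosen after its values were seen, Ppp1r15b, the constitutive counterpart of GADD34, rose by 0.59 (adjusted p = 0.000102, SE 0.13) in the authors' deposited table.

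**Figure D2:**
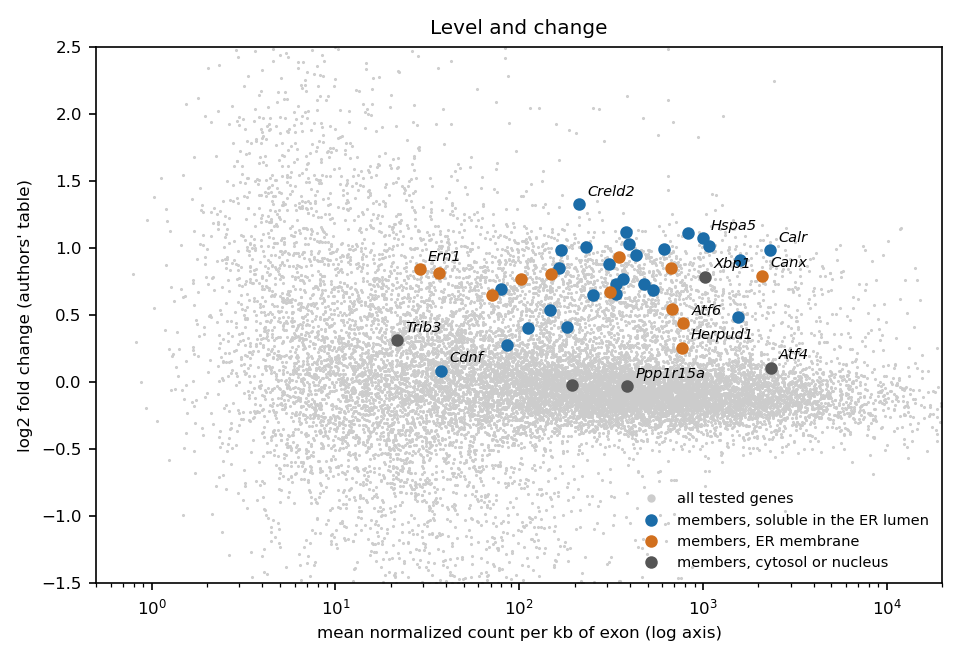
Log2 fold change against the mean normalized count per kb of exon (log axis) for the 44 genes, over all tested genes in grey, from the authors' deposited table. The called lumenal and membrane genes span levels from 28.7 to 2327 per kb, and Atf4, Ppp1r15a and Ddit3 lie near 0 at levels where others rose. The axis leaves out 29 tested genes above 2.5 and 191 below -1.5.

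Stricter and looser rules give other backgrounds. At an adjusted p under 0.01, 33 of the 44 were higher against 9.14% of tested genes, and at one under 0.1, 35 against 13.5%. By Bonferroni 18 were higher against 4.3%. With a log2 fold change of at least 0.5, 33 were higher against 10.7%, and with p adjusted over all genes with a p, 35 against 10.7%. Adjusted over genes with a mean of at least 100, 35 were higher against 15.3%, and after centring on the median of all tested genes, 35 against 12.1% (0 lower, against 1.86%).

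The size of the rise was only loosely related to level. Across the 39 lumenal and membrane genes, Spearman's rho between the log2 fold change and the mean level per kb was 0.28, and with protein length 0.07. These are descriptions across genes that share the same libraries.

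The background for these counts depends on the kind of protein. Hydrophobic segments, the marks of a signal peptide or of a stretch that crosses a membrane, were predicted from the coding sequence of each gene. Of 3838 tested coding genes with such a segment 44.2% were called higher, and of 10034 without one 2.75%. Called lower were 0.156% and 1.5%. The class with a segment pools unlike genes. Called higher were 42.2% of those with a segment at the start only (median 0.60) and 48.9% of those with one past the start (median 0.58). Of the 300 with one near the end of the protein only, 12% were called higher, with a median of 0.03. A segment was predicted for 33 of the 39 lumenal and membrane genes, of which 31 rose, and for none of the 5 effectors. The prediction misses P4hb, Manf, Cdnf, Sdf2l1, Uggt2 and Herpud1, of which P4hb, Manf and Sdf2l1 rose.

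**Figure D3:**
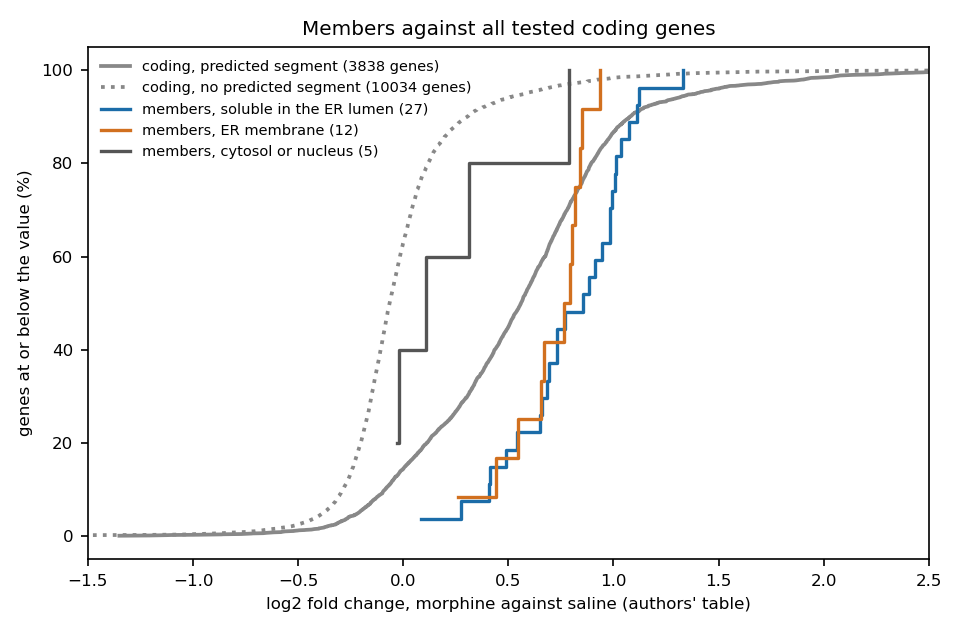
Share of genes (%) at or below each log2 fold change of the authors' deposited table, for the 44 genes by place of the protein and for all tested coding genes with and without a predicted segment. The lumenal curve (median 0.86) and the membrane curve (median 0.78) run mostly to the right of the curve for genes with a segment (median 0.56), while that of the effectors lies nearer to the genes without one (median -0.06). The axis leaves out 29 tested genes above 2.5 and 191 below -1.5.

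Measured against genes of the same kind, fewer of the 44 stand out. Of the 39 lumenal and membrane genes, 30 lay above the median of genes with a segment, 21 of the 27 lumenal and 9 of the 12 membrane genes. For the class without a segment, genes with no full coding sequence were included here, which puts its median at -0.07. When the median of each class was subtracted and the Wald p recomputed with the authors' SE and adjusted over all genes, 8 of the 44 were higher and 0 lower, against 3.14% and 3.73% of all genes. Since the prediction misses several members, these were also placed by their known location, a choice made after the values were seen. Then 6 were higher, against 3.13% of all genes: Creld2 (0.77, adjusted p = 0.0141), Pdia6 (0.56, adjusted p = 0.0289), P4hb (0.55, adjusted p = 0.0359), Hspa5 (0.51, adjusted p = 0.0416) and Hyou1 (0.43, adjusted p = 0.0355) above the median of genes with a segment, and Xbp1 (0.86, adjusted p = 2.77e-05) above that of genes without one. The shares of 3.14%, 3.73% and 3.13% are over tested genes of all classes. The share called among genes with a segment alone was not computed, so these counts lack a background of the same kind. With members placed by location, none of the 12 membrane genes or 3 sensors passed. At an unadjusted p under 0.05, 1 membrane gene, Derl1, was then higher and 1, Herpud1, lower. Xbp1 was centred only on the genes without a segment. Among genes with a segment, 70.8% had a lower fold change than Xbp1, and its p against their median was not computed. The sign for Herpud1 rests on the class it is placed in. It was at -0.30 relative to the median of genes with a segment (unadjusted p = 0.0401, adjusted p = 0.282), where its known location puts it, and at 0.33 relative to that of genes without one (unadjusted p = 0.0249, adjusted p = 0.208), where the prediction puts it.

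Many lumenal proteins end in a signal that returns them from the Golgi, known as KDEL after its letters. A KDEL-like end, with K, H or R, any residue, then E and L, was found in 15 of the 27 lumenal genes, of which 14 rose with a median of 0.91 in the authors' deposited table. Of the 12 lumenal genes without it, 9 rose with a median of 0.73. Only this pattern was searched, so a protein with another form of return signal counts as without it. Among all tested coding genes with a predicted segment, 44.2% were called higher. Among genes that are not in this group, 20 tested ones have both such an end and a segment at the start of the protein. Of these 11 rose, 0 fell, and their median in the authors' deposited table was 0.84, against 41.1% called higher and a median of 0.59 over all 1012 such genes with a segment at the start, these 20 included. Of 19 tested genes with such an end and no segment, 1 rose, against 2.75% of all tested coding genes without a segment.

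Returning to the promoters, all 8 genes with the ER stress element rose, with a median of 0.99 and a range of 0.67 to 1.33 in the authors' deposited table. All 8 have a predicted segment, and of the 33 lumenal and membrane genes with one 31 rose. Of the 25 lumenal and membrane genes whose promoter lacked the exact element, 21 rose, with a median of 0.73 and a range of 0.09 to 1.11. These 25 include P4hb, Sdf2l1, Cdnf, Uggt2 and Herpud1, for which no segment was predicted. Of those, P4hb and Sdf2l1 rose and the others did not pass. Herpud1 and Dnajb11, which hold ERSE-II, are also among the 25. The groups with and without the element thus differ in segment class as well. The element was also found at 11 other tested genes. The shares to set beside their counts are 44.2% called higher among tested coding genes with a predicted segment and 2.75% among those without. Of the 5 with a predicted segment 2 rose, the oxidoreductase gene Ero1lb (0.95, SE 0.22) and the adenylyl cyclase gene Adcy3 (0.89, SE 0.14) in the authors' deposited table. Acacb (1.25, SE 0.51), Alg12 (0.59, SE 0.23) and Derl3 (0.41, SE 0.45) did not pass. The Alg12 site is the same site as that printed for Creld2. Of the 6 without a segment 0 passed, and these include Hnrnpa3 at -0.23 (SE 0.12), Pan2 at 0.02 (SE 0.17) and Spats2l at -0.11 (SE 0.15) in the authors' deposited table. The numbers are small, and the genes with a segment and the element are largely the chaperones themselves.

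Further genes of the pathway were listed apart from the 44. The shares to set beside their counts are 44.2% called higher among tested coding genes with a predicted segment and 2.75% among those without. Of 40 tested genes for further folding enzymes, lectins, cargo receptors and KDEL receptors, 28 rose and 0 fell, with a median of 0.80 in the authors' deposited table. The highest of those called were Tmx2, a membrane thioredoxin (1.14, SE 0.16), and Mogs, the glucosidase that starts sugar trimming (1.12, SE 0.19), and the lowest Txndc16 (0.42, SE 0.14) and Sdf4 (0.41, SE 0.14) in the authors' deposited table. At an unadjusted p under 0.05, 30 were higher and 0 lower. Of 27 further ERAD genes 13 rose and 0 fell, 11 of 16 with a predicted segment and 2 of 11 without. The authors' deposited table gave Selenos 1.03 (SE 0.20), Aup1 0.45 (SE 0.16) and Faf2 0.38 (SE 0.14). Vcp, the cytosolic ATPase that pulls substrates from the membrane, named after its values were seen, was at -0.03 (SE 0.12) in the authors' deposited table.

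Further signalling genes of the response rose in 7 of 20 and fell in 0, 5 of 9 with a predicted segment and 2 of 11 without. Over all tested coding genes these shares were 44.2% and 2.75%. The authors' deposited table gave Tmbim6, an ER membrane protein that restrains IRE1, 1.02 (SE 0.15), and the proteases that release ATF6 in the Golgi, Mbtps1 and Mbtps2, 0.55 (SE 0.13) and 0.58 (SE 0.18). Nfe2l2, encoding the oxidative stress factor NRF2, was at 1.16 (SE 0.39, adjusted p = 0.0245) on a mean of 74.6 normalized counts in the authors' deposited table.

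Targets of ATF4 and of the integrated stress response rose in 4 of 21 tested genes and fell in 0. All 3 with a predicted segment were amino acid transporter genes, and in the authors' deposited table they were at 1.08 (Slc7a5, SE 0.19), 0.91 (Slc7a11, SE 0.29) and 0.84 (Slc3a2, SE 0.18). Of the 18 without a segment 1 passed, Phgdh, the first enzyme of serine synthesis, at 1.68 (SE 0.31) in the authors' deposited table. Over all tested coding genes, 44.2% with a segment and 2.75% without were called higher. Typical targets of a strong response, named after their values were seen, were at -0.28 (Asns, SE 0.13), -0.19 (Chac1, SE 0.20) and 1.30 (Atf3, SE 0.77, on a mean of 22.2 normalized counts) in the authors' deposited table, and none passed.

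**Figure D4:**
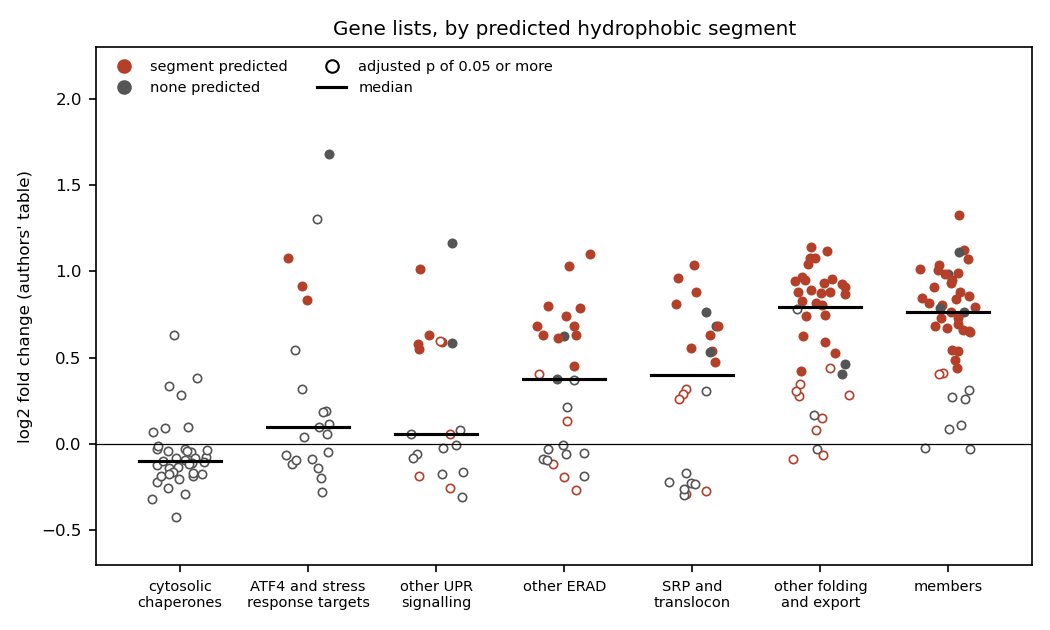
Log2 fold change in the authors' deposited table of the tested genes in each list, with the median as a line. Colour tells genes with a predicted segment from those without, filled points passed adjusted p under 0.05, and the horizontal spread carries no value. The medians run from -0.10 for cytosolic chaperones to 0.80 for other folding and export genes and 0.77 for the 44 genes.

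Chaperones of the cytosol, listed for comparison, had no call in either direction. Of 37 such genes, Hsp70, Hsp90, J-domain, small heat shock and chaperonin genes, 0 passed in the authors' fit, 0 were higher and 2 lower at an unadjusted p under 0.05, and their median in the authors' deposited table was -0.10. No segment was predicted for any of them, and of tested coding genes without one 2.75% were called higher and 1.5% lower. Genes of the signal recognition particle, translocon and signal peptidase, through which chains enter the ER, rose in 12 of 24 and fell in 0, 9 of 14 with a predicted segment and 3 of 10 without. The shares over all tested coding genes were 44.2% and 2.75%. The authors' deposited table gave Sec61a1, the pore of the translocon, 1.04 (SE 0.16), Ssr2 0.96 (SE 0.17), Sec11c 0.53 (SE 0.18) and Sec63 0.48 (SE 0.16).

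Markers of other cell types moved in the same libraries. Of 8 oligodendrocyte markers 6 rose, of 8 astrocyte markers 7, of 6 tested microglial markers 6 and of 8 choroid plexus and ependymal markers 5, and 0 fell. Their medians in the authors' deposited table were 1.20, 1.47, 2.39 and 2.18. Over all tested genes 11.8% were called higher, and over coding genes 44.2% with a predicted segment and 2.75% without. Markers not called, named after their values were seen, were Mobp, Opalin, Foxj1, Otx2, Aldh1l1 (0.22, SE 0.22) and Clic6 (0.16, SE 0.17). Of these only Opalin has a predicted segment. Examples from the authors' deposited table are Cldn11 at 1.97 (SE 0.19), Mag at 1.86 (SE 0.21), Cnp at 0.73 (SE 0.13), Mbp at 0.65 (SE 0.14), Slc1a3 at 2.28 (SE 0.22), Slc7a10 at 2.34 (SE 0.64), Aldoc at 0.88 (SE 0.17) and Slc1a2 at 0.66 (SE 0.17). Microglial and choroid plexus examples in the authors' deposited table are Cx3cr1 at 2.88 (SE 0.40), C1qb at 2.56 (SE 0.72), P2ry12 at 2.14 (SE 0.49), Ttr at 4.68 (SE 0.20), Kcne2 at 3.20 (SE 0.92), Prlr at 2.44 (SE 0.41) and Kl at 1.93 (SE 0.25). All of these cells express the chaperones, and the part of other cells in the rise was not tested. Oprm1, the gene the Cre line is named for, was at 0.29 (adjusted p = 0.350, SE 0.18) in the authors' deposited table, and 37.4% of tested genes had a lower mean level per kb.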

How the data were processed

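Ribosome-bound RNA of 6 libraries, 3 after morphine and 3 after saline, was sequenced by the authors, and only their comparison table was analysed. Per the submitters' processing notes the processing involved DESeq2 1.20.0 and STAR 2.6.1d, and the builds named are mm10 and GRCm38. The sources used here do not give the read counter, strand setting, model formula, filters or libraries fitted, nor the meaning of RM-out in the table's title. The deposited mean level is a signal, counts divided by size factors and averaged. The authors' deposited fold changes and SEs are log2 values. The Wald statistic they deposited, the former over the latter, is a score. Their deposited p-values come from that statistic, with Benjamini-Hochberg adjustment over 17279 genes, 1453 others having none. Depth per library is unknown, and precision is known only through the SEs. The labels do not say that pools came from separate litters or days, so p measures only the spread between these libraries.

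Identifiers were matched to GENCODE M21 on GRCm38 (18732 of 18732). Levels per kb are the mean over the union of exon bases. Intervals are 1.96 SEs to either side. A segment was called where mean Kyte-Doolittle hydropathy reached 1.9 over 19 residues, or 2.2 over 12 of the first 40, in the longest complete coding sequence. Pseudogene copies were searched with blastn 2.17.0, and only 1 copy of a member, overlapping Hsp90b1, was in the table. Promoters of 38 genes were matched to RefSeq by symbol or synonym. Named genes are all 44 members, Oprm1 and, in each other list, the 2 highest and 2 lowest called genes, of which some are not reported here. The members and lists were chosen with earlier results of these data known. Alternatives changed the threshold, adjustment, filter, size of change and centring, and the recomputation was tested on simulated data. The simulation shifted all genes of a class by the same amount, so it does not cover a class whose genes shift unequally. Software was Python 3.11.15 with Biopython 1.88, scipy 1.17.1, matplotlib 3.10.9, pandas 2.3.3 and numpy 2.4.6.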

Additional observations from a re-analysis of the deposited data

How the results depend on the processing

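The 35 calls among the 44 genes remained when p was adjusted over genes with a mean of at least 100 (Trib3 is then not tested), over all genes with a p, at an adjusted p under 0.1, and after centring on the median of all tested genes. At an adjusted p under 0.01, and where a change of 0.5 or more was also required, 33 remained, Os9 and Atf6 being lost each time. With Bonferroni adjustment 18 were higher, of which 15 were lumenal, 3 membrane (1 a sensor) and 0 effectors.

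Centring within predicted segment classes left 8 higher, of which 7 were lumenal and 0 membrane or sensor genes. Placing members by location left 6, of which 5 were lumenal and 0 membrane or sensor genes. At an unadjusted p under 0.05, 17 and 13 of the 44 were higher in these settings. Xbp1 passed in both, each time centred on the genes without a segment. Signs turned in both settings for Sil1 (-0.15), Erp29 (-0.020), Creld1 (-0.013), Edem2 (-0.15), Os9 (-0.070), Atf6 (-0.12), Ddit3 (0.050) and Ppp1r15a (0.042), and by location also for Cdnf (-0.48), Uggt2 (-0.29) and Herpud1 (-0.30). None of these passed. The medians subtracted were 0.56 with a segment and -0.07 for all other genes, those with no full coding sequence included. This construction compares each gene with others of its kind instead of with 0.

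No paired analysis was possible because no value per library was in the files used, and libraries could not be left out in turn for the same reason. Without values per library, how far the changes vary between libraries is not known.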
